A study of Homo sapiens with 4 samples.

Results

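Nonsense-mediated decay (NMD) is the surveillance pathway that degrades mRNAs in which translation stops too early, and 9 of its core factors were followed here by their gene names: UPF1, UPF2, UPF3A, UPF3B, SMG1, SMG5, SMG6, SMG8 and SMG9. They are 9 of the 58735 genes in the deposited count tables, and all 9 passed the filter on low counts that left 16091 genes for testing. The cells were HCT116, an established human colon cancer line, carrying either a control shRNA (control_sh) or an shRNA against RBM25 (RBM25_sh), with 2 libraries of total RNA per group. Both groups were grown alike in McCoy's 5A medium with serum. The labels do not say whether the replicates were separate cultures, so the p-values reflect only how far these libraries lie apart, and that spread may be technical. They also name no clone and no shRNA sequence, and 1 shRNA label per group means that effects of the hairpin itself and of RBM25 loss cannot be told apart.

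In NMD, the helicase UPF1 is bridged by UPF2 and by UPF3A or UPF3B to the exon junction complexes that splicing leaves on an mRNA. The kinase SMG1, held in check by SMG8 and SMG9, phosphorylates UPF1, and phosphorylated UPF1 recruits SMG5 and SMG6, SMG6 being the endonuclease that cuts the transcript. Because the pathway reads splice junctions, it removes many misspliced mRNAs, and transcripts of several of its own factors are themselves among its targets. RBM25 binds RNA and helps the U1 snRNP choose splice sites. RBM25 itself measured 155.3 and 114.9 CPM (counts scaled by edgeR's TMM library sizes) in control_sh and 44.0 and 35.7 CPM in RBM25_sh. It fell by 1.76 ± 0.30 (SE) on the log2 scale (edgeR adjusted p = 0.0195). Without RBM25_sh replicates 1 and 2 in turn the differences were −1.90 and −1.58, and the edgeR adjusted p-values of 0.119 and 0.202 no longer passed. With an offset for GC content, described below, RBM25 was at −1.95 ± 0.12 (edgeR adjusted p = 6.63e-05), and it stayed called without RBM25_sh replicate 1 or 2 (−1.96 and −1.94, edgeR adjusted p = 4.9e-05 and 4.59e-06). In bulk RNA such as this, fewer cells with a transcript and less of it per cell cannot be told apart.

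Library totals ranged from 15528274 to 16982663 counts, and the 9 factors had between 387 and 6481 counts per library, so counting error was at most 5.1% of a value. Of 10 epithelial markers 8 were tested, KRT8, KRT18, KRT19, EPCAM and CDH1 among them (the last 3 named after their values were seen). VIL1 and CEACAM5, likewise named afterwards, had at most 3 counts in any library. As fitted edgeR called none of the 8 (0 at an unadjusted p under 0.05). With the GC offset described below KRT8 was called higher and CLDN4 lower, where 12.8% and 15.3% of all tested genes were. Of 14 markers of other cell types 11 were too low to test, CD3E and CDH5, the only ones at 0 in all 4 libraries, are named for that reason, and COL1A1 was the highest with 553 to 1111 counts. ACTA2, a smooth muscle and myofibroblast marker, had 51 and 72 counts in control_sh and 9 and 16 in RBM25_sh, a log2 difference of −2.14 ± 0.49 (edgeR adjusted p = 0.0501), and was called lower with the GC offset (−2.07 ± 0.41, edgeR adjusted p = 0.00706). The summed level of those 14 was 48.1 and 76.7 CPM by library totals for control_sh and 39.3 and 51.7 for RBM25_sh, and their part in the results was not tested.

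Base composition is described first, since replicate 2 lay above replicate 1 in GC-rich genes and below it in AT-rich genes in each group. The GC content of the longest transcript ran from 40.3% in UPF2 to 60.5% in UPF1. As examples, the middle 120 bases of the coding sequence follow for these 2 factors and for SMG5 and SMG8, from the GENCODE release 29 transcripts on GRCh38, 5′ to 3′ on the coding strand, with G and C in capitals.
UPF1: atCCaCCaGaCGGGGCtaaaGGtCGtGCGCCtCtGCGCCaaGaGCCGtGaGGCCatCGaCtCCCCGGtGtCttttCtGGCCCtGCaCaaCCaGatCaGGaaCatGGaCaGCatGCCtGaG
UPF2: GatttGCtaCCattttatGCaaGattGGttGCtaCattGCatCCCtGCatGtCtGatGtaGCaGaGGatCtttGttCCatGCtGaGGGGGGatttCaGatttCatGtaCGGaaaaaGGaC
SMG5: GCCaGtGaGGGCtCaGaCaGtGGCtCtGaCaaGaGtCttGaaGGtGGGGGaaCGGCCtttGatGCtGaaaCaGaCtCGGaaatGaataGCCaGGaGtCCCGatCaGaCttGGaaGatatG
SMG8: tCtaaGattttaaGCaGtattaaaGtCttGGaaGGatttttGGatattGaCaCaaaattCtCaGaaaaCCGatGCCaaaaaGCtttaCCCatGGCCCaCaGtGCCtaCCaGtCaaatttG
The UPF1 stretch (coding bases 1633 to 1752, exons 12 and 13, chr19:18855980-18856195, plus strand) holds 73 G or C bases of 120, and the UPF2 stretch (coding bases 1849 to 1968, exons 8 and 9, chr10:11967440-11979161, minus strand) holds 52. The SMG5 stretch (coding bases 1465 to 1584, exon 12, chr1:156266052-156266171, minus strand) holds 63, and the SMG8 stretch (coding bases 1426 to 1545, exon 2, chr17:59211477-59211596, plus strand) holds 45. A stretch this short does not rank the factors as whole transcripts do, since SMG8 is below UPF2 here and UPF3B and UPF3A, not shown, hold 40 and 43.

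Across the 9 factors, the log2 difference of replicate 2 from replicate 1 followed GC content with Spearman coefficients of 0.79 (control_sh) and 0.83 (RBM25_sh). These are descriptions over 9 genes that share the same 4 libraries. UPF1 was higher in replicate 2 by 0.47 in the control and 0.48 in the RBM25_sh libraries on the log2 scale. UPF2 went the other way, with differences of −0.51 and −0.26, and so did SMG8 with −0.39 and −0.22. Replicate 2 lay on the same side of replicate 1 in both groups for 8 of the 9 factors, against 76.1% of all tested genes. UPF3A was the exception, at 0.30 in the control and −0.07 in the RBM25_sh libraries. Its longest transcript has a GC content of 41.8%, while its coding sequence has 53.2%. Each factor's fold change is given both as fitted by edgeR and after an offset that removes each library's smooth trend on GC content (the GC offset). The offset also removes any difference between the groups that follows GC content, and such a difference was present. Over 12990 tested genes above a log2 CPM of 1, the fold change followed GC content with a Spearman coefficient of −0.27 as fitted. With the offset it was −0.002, and the cause of this trend was not tested.

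**Figure D1:**
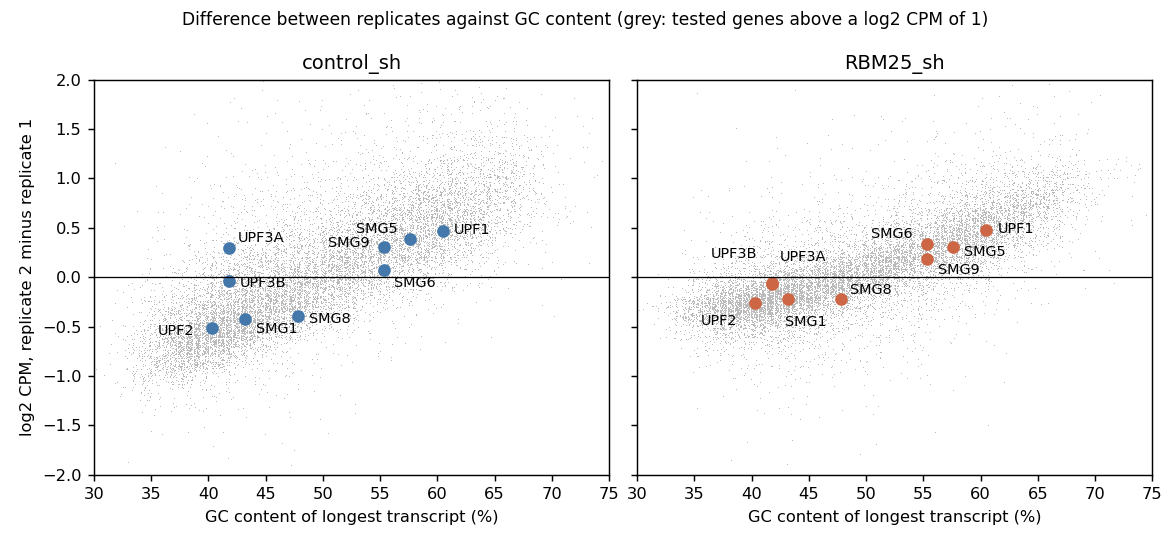
Log2 CPM of replicate 2 minus replicate 1 (vertical axis) against the GC content of the longest transcript in percent (horizontal axis), for the control_sh libraries on the left and the RBM25_sh libraries on the right. Grey points are tested genes above a log2 CPM of 1 and coloured points are the 9 decay factors, with UPF1 at 0.47 and 0.48 and UPF2 at −0.51 and −0.26.

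None of the 9 factors passed the threshold of an edgeR adjusted p of 0.05 as fitted, where 3.05% of all tested genes did, 0.653% higher and 2.40% lower. With the GC offset UPF2, SMG5 and SMG8 were called higher and none was called lower, where 12.8% of all tested genes were called higher and 15.3% lower. At an unadjusted edgeR p under 0.05 without the offset there was 1 factor, SMG8, against 21.4% of all tested genes. The DESeq2 Wald test called SMG8 alone, where it called 6.74% of all tested genes, and limma-voom called none, where it called 2.32%. The median log2 fold change over the 9 was 0.05, or 0.02 with the GC offset, beside −0.04 and −0.02 over all genes tested. Under each fit 5 of the 9 fold changes were above 0. Summed over the 9, the level by library totals was 969.0 and 977.5 CPM for control_sh and 990.7 and 1004 CPM for RBM25_sh.

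**Figure D2:**
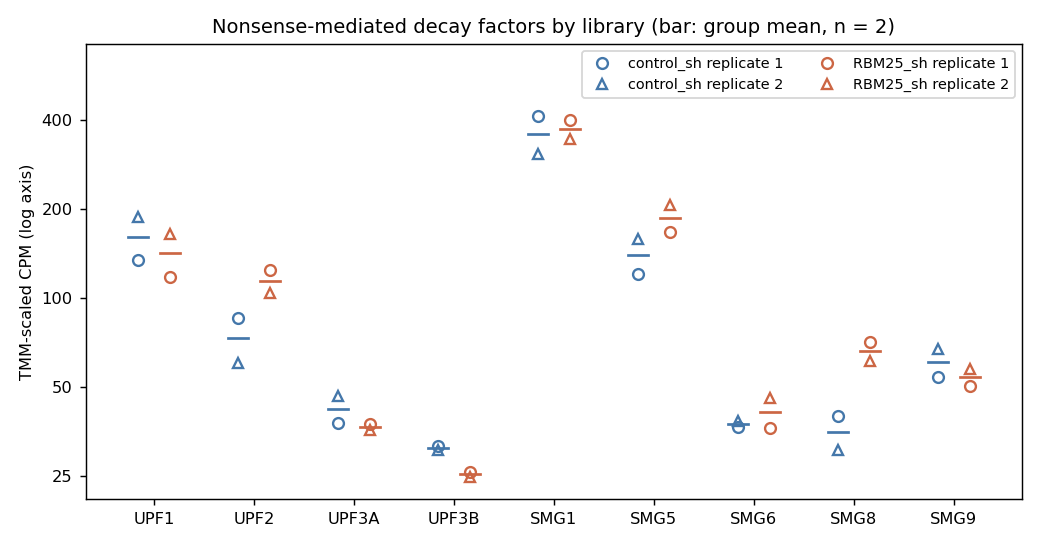
TMM-scaled CPM on a log axis for each decay factor, with 1 point per library (circles for replicate 1, triangles for replicate 2) and a bar at the group mean of 2 libraries. The groups do not overlap for UPF2, SMG5 and SMG8, which are higher in RBM25_sh, nor for UPF3A and UPF3B, which are lower there.

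SMG8 showed the largest difference of the 9 under both fits. SMG8 (ENSG00000167447, GRCh38 chromosome 17, 59209400 to 59215247, plus strand), which restrains SMG1, had 40.1 and 30.7 CPM in control_sh and 71.2 and 61.3 CPM in RBM25_sh. The groups were far apart relative to the spread within them. Its mean was 35.4 ± 6.66 (SD, n = 2) and 66.3 ± 7.02 CPM, which gave a log2 difference of 0.90 ± 0.28 (edgeR adjusted p = 0.115). With the GC offset SMG8 rose by 0.89 ± 0.15, or 1.85-fold (edgeR adjusted p = 0.00399), which placed it at percentile 94.0 of all genes tested. With the offset it was called with each library left out in turn, with values from 0.73 to 1.05 and a highest edgeR adjusted p of 0.0313. A protein-coding gene annotated over SMG8 on the same strand, AC099850.2, is named after its values were seen and had 0 counts in every library.

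SMG9, whose protein also restrains SMG1, was not called under either fit. SMG9 (chromosome 19, 43727992 to 43754990, minus strand) was measured at 54.1 and 67.3 CPM in control_sh and 50.5 and 57.4 CPM in RBM25_sh, and the groups overlapped. Its log2 fold change was −0.17 ± 0.28 (edgeR adjusted p = 0.767), or −0.02 ± 0.12 with the GC offset (edgeR adjusted p = 0.908). Per length, SMG8 FPKM over SMG9 FPKM was 1.56 and 0.964 in control_sh and 2.98 and 2.26 in the RBM25_sh libraries. The ratio did not overlap between the groups, and this difference was not tested. FPKM carry no GC offset, and groups did not overlap in CPM for 51.8% of all tested genes. Of other ratios taken, SMG5 over SMG6 was also higher in RBM25_sh without overlap, while UPF2 over UPF1 and SMG1 over SMG9 overlapped.

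The kinase gene SMG1 had the most counts of the 9. SMG1 (chromosome 16, 18804853 to 18926454, minus strand) was measured at 409.9 and 306.4 CPM in control_sh and 399.6 and 343.6 CPM in RBM25_sh, so that the RBM25_sh values lay inside the control range. Its log2 fold change was 0.05 ± 0.28 (edgeR adjusted p = 0.939), or −0.04 ± 0.14 with the GC offset (edgeR adjusted p = 0.863), and its sign also turned when libraries were scaled by totals only. SMG1 has partial copies on chromosome 16, of which SMG1P1 had 369 to 532 counts per library, SMG1P2 156 to 242 and SMG1P5 73 to 167, so part of the SMG1 reads could be counted for a copy or the reverse. Of the 10 copies of SMG1 and UPF3A looked up 6 were tested and edgeR called none as fitted (1 at an unadjusted p under 0.05). SMG1P7 was called higher with the GC offset (1.05 ± 0.25, edgeR adjusted p = 0.0144), 1 of 6 against 12.8% of all tested genes.

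UPF2 was higher in both RBM25_sh libraries than in either control library. UPF2 (ENSG00000151461, chromosome 10, 11920022 to 12043170, minus strand), the adaptor between UPF1 and UPF3B, had 86.0 and 60.5 CPM in control_sh and 124.8 and 104.0 CPM in RBM25_sh. The log2 fold change was 0.64 ± 0.29 (edgeR adjusted p = 0.239). After the GC offset the libraries stood at 77.2 and 75.6 against 107.3 and 106.9 corrected CPM, so that replicates lay closer together while the groups stayed apart. The offset did not do this for every factor, since control_sh replicates of UPF3A, UPF3B and SMG6 lay further apart with it. They stood at 34.7 and 55.75, 28.9 and 36.7, and 39.3 and 32.3 corrected CPM. With the offset UPF2 rose by 0.49 ± 0.12, or 1.40-fold (edgeR adjusted p = 0.0153), and leaving out RBM25_sh replicate 1 or 2 gave 0.49 each time with edgeR adjusted p-values of 0.159 and 0.143.

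UPF1, the helicase at the centre of the pathway, was not called under either fit. UPF1 (ENSG00000005007, chromosome 19, 18831938 to 18868236, plus strand) had 134.8 and 187.3 CPM in control_sh and 118.1 and 164.7 CPM in RBM25_sh. Replicate 2 was the higher library in each group and the groups overlapped. The log2 fold change was −0.19 ± 0.30 (edgeR adjusted p = 0.764), and it was 0.02 ± 0.12 with the GC offset (edgeR adjusted p = 0.931), where the 4 libraries lay between 140.9 and 154.1 corrected CPM.

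The paralogs UPF3A and UPF3B had lower values in RBM25_sh without passing the threshold. UPF3B (chromosome X, 119805311 to 119852998, minus strand), the stronger NMD activator of the pair, had 31.6 and 30.7 CPM in control_sh and 25.9 and 24.8 CPM in RBM25_sh. In CPM, replicates of UPF3B lay closer together than the groups did. With the GC offset the control_sh replicates lay further apart than the nearest libraries of the groups. UPF3B then stood at 28.9 and 36.7 corrected CPM in control_sh and 22.8 and 25.6 in RBM25_sh. Its log2 fold change was −0.29 ± 0.28 (edgeR adjusted p = 0.583), or −0.44 ± 0.17 with the GC offset (edgeR adjusted p = 0.0818). UPF3A (chromosome 13, 114281584 to 114305817, plus strand) had 37.9 and 46.6 CPM in control_sh and 37.7 and 35.9 CPM in RBM25_sh, where the nearest libraries of the groups were almost level. Its log2 fold change was −0.20 ± 0.28 (edgeR adjusted p = 0.726), or −0.36 ± 0.21 with the GC offset (edgeR adjusted p = 0.228). The offset took UPF3A at the 41.8% GC of its longest transcript, while its coding sequence has 53.2%. An offset from coding sequences was not fitted, so the UPF3A values with the offset rest on that choice. With the offset the UPF3A and UPF3B differences rested on the control libraries, at −0.67 and −0.61 without control_sh replicate 1, where both were called lower (edgeR adjusted p = 5.67e-04 and 0.00386), and at 0.01 and −0.26 without control_sh replicate 2. UPF3A FPKM over UPF3B FPKM was 0.642 and 0.811 in control_sh and 0.777 and 0.772 in the RBM25_sh libraries, and overlapped.

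Among the factors that act after UPF1 phosphorylation, SMG5 was called higher in RBM25_sh with the GC offset. SMG5 (ENSG00000198952, chromosome 1, 156249224 to 156282825, minus strand), an adaptor that links UPF1 to decapping and deadenylation, had 120.5 and 158.2 CPM in control_sh and 166.6 and 206.7 CPM in RBM25_sh. The lower RBM25_sh library was just above the higher control library. The log2 fold change was 0.42 ± 0.28 (edgeR adjusted p = 0.430). After the GC offset the libraries stood at 132.8 and 126.2 against 201.3 and 192.4 corrected CPM, and SMG5 rose by 0.60 ± 0.12, or 1.52-fold (edgeR adjusted p = 0.00819). Without RBM25_sh replicates 1 and 2 the offset fit gave 0.59 and 0.65 with edgeR adjusted p-values of 0.124 and 0.0744.

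SMG6 (chromosome 17, 2059839 to 2303771, minus strand), the endonuclease, had 36.7 and 38.4 CPM in control_sh and 36.3 and 46.0 CPM in RBM25_sh. The groups overlapped. Its log2 fold change was 0.13 ± 0.28 (edgeR adjusted p = 0.826), or 0.26 ± 0.15 with the GC offset (edgeR adjusted p = 0.223), and without control_sh replicate 1 the offset fit gave 0.40 and a call (edgeR adjusted p = 0.0323). Of the genes that overlap SMG6 in the annotation, SRR had 62 to 131 counts per library and HIC1 5 to 36, both on the opposite strand. The strand setting of the counting is not given in the sources used here, so reads of these genes and of SMG6 cannot be told apart where they overlap.

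**Figure D3:**
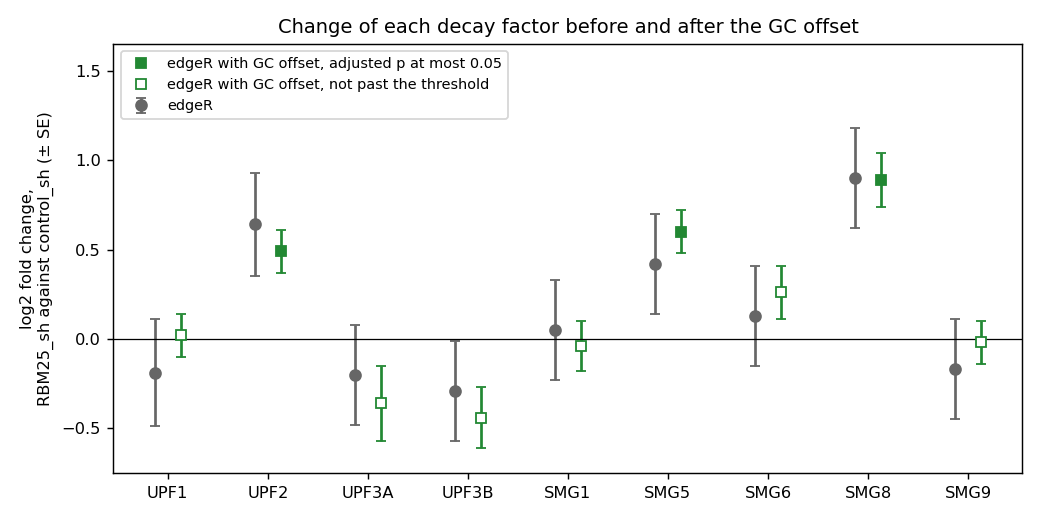
Log2 fold change of RBM25_sh against control_sh with its SE for each decay factor, as fitted by edgeR (grey circles) and with the GC offset (green squares, filled where the adjusted p is at most 0.05). UPF2, SMG5 and SMG8 are filled at 0.49, 0.60 and 0.89, and the SE falls from 0.28 to 0.30 as fitted to 0.12 to 0.21 with the offset.

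Groups that did not overlap in CPM were seen for 3 factors on the higher side (UPF2, SMG5 and SMG8) and 2 on the lower side (UPF3A and UPF3B), against 23.9% and 27.9% of all tested genes. After the GC offset they were 4 on the higher side, SMG6 being the addition, and 1 on the lower side, UPF3B, against 32.0% and 34.6% of all tested genes; in either direction the shares were 51.8% before and 66.5% after the offset. Among all genes tested with the offset, SMG5 lay at percentile 87.3, UPF2 at 82.6 and SMG6 at 69.8, and UPF3A and UPF3B at 29.8 and 26.6.

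**Figure D4:**
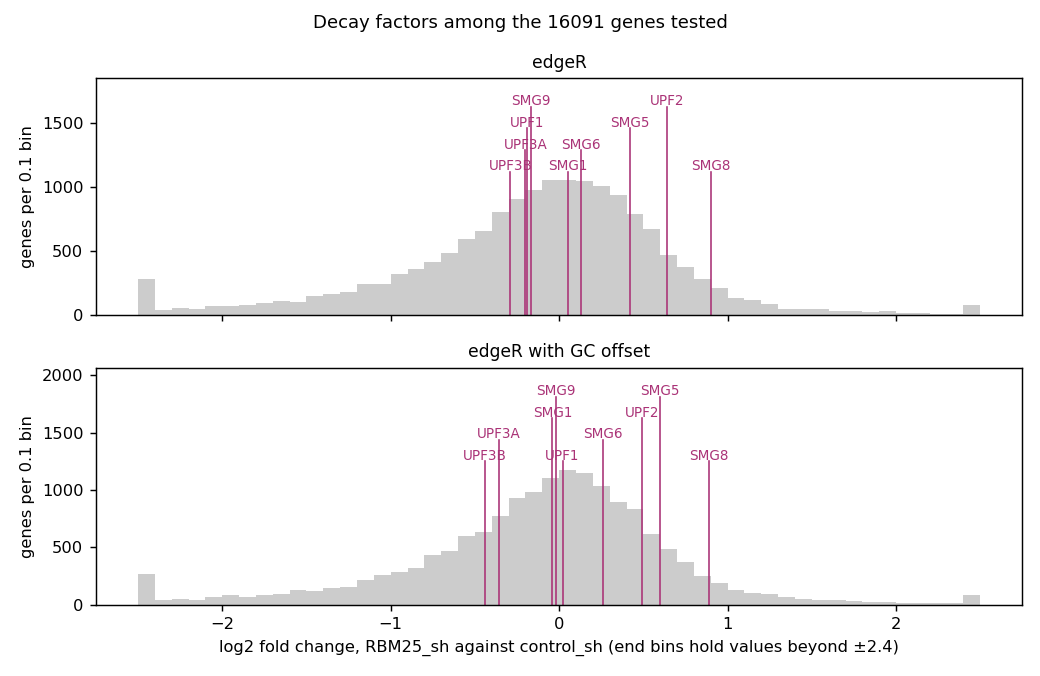
Number of tested genes per 0.1 bin of log2 fold change of RBM25_sh against control_sh, as fitted by edgeR (top) and with the GC offset (bottom), with each decay factor marked by a line. SMG8 lies at 0.90 and 0.89 in the upper tail, and UPF1 moves from −0.19 to 0.02.

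Levels were compared between genes per length, as deposited FPKM, which divide by the summed exon length of a gene (25988 bases for SMG1). This length is 10554 bases for SMG6, 5772 for UPF3A and 3081 for UPF3B, and the order below depends on it. In mean control CPM UPF3A stood above UPF3B, at 42.3 and 31.1. SMG5 was the most abundant of the 9 in the control libraries at 25.2 ± 4.76 FPKM (SD, n = 2), followed by UPF1 at 18.0 ± 4.10, SMG1 at 13.2 ± 2.74 and UPF2 at 11.9 ± 2.96. UPF3B at 9.71 ± 0.218, SMG8 at 9.07 ± 1.73, SMG9 at 7.36 ± 1.11 and UPF3A at 7.04 ± 1.0 came next, and SMG6 was lowest at 3.42 ± 0.101. Within the control libraries only SMG5 and SMG6 were separated from their neighbour in this order without overlap. In the RBM25_sh libraries SMG8 stood in the third place at 17.5 ± 2.45 FPKM and UPF2 in the second at 19.1 ± 3.12, where neighbours overlapped from UPF2 down to SMG1. The range from lowest to highest factor was 7.37-fold in the control and 9.01-fold in the RBM25_sh libraries, and SMG6 alone lay below the median of 5.54 FPKM over 13089 tested protein-coding genes.

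In the annotation, SMG8 differs from the others by its short 3′ UTR of 237 bases in the transcript with the longest coding sequence, at percentile 17.2 of tested protein-coding genes. A long 3′ UTR is a known feature of NMD targets. SMG1 had 4716 bases and SMG9 3604, and 6 of the 9 were over 1000 bases, against 48.7% of tested protein-coding genes. SMG1, SMG8 and SMG9 each have 1 transcript annotated as an NMD target, so 3 of 9 do, beside 42.6% of tested protein-coding genes. The counts are per gene, so the shares of such transcripts were not analysed here.

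Since UPF2 and SMG5 were called higher with the GC offset, the 250 bases upstream of their annotated starts are shown from RefSeq's promoter table (GRCh38.p14, minus strand, 5′ to 3′), which held 8 of the 9 factors (none for SMG8). The table holds a second window for each, 361 bases away for UPF2 and 8691 for SMG5, and the window at the gene's GENCODE start is shown. Capitals mark exact matches on either strand to any of 7 motifs, the CCAAT and TATAAA boxes, the GC box GGGCGG, the E-box CACGTG, the ETS site CCGGAAG, the CRE palindrome TGACGTCA and the NRF1 site GCGCATGCG. The GC boxes of UPF2 overlap each other.
UPF2, chr10:12043171-12043420: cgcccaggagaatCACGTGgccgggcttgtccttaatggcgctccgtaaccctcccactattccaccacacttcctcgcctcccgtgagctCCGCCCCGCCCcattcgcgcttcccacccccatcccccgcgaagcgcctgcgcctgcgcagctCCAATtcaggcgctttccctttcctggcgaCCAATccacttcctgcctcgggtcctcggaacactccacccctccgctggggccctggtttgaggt
SMG5, chr1:156282826-156283075: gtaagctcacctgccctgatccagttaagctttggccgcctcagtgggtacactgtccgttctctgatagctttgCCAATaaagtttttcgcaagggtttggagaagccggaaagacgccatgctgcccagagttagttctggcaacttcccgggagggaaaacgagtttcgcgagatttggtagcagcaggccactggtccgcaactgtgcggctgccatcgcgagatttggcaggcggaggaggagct
The UPF2 window holds CCAAT at −96 and −66 from the start, GGGCGG on the opposite strand at −159 and −154, and CACGTG, which reads the same on both strands, at −237. The SMG5 window holds CCAAT at −175 and no other match. In the windows not shown, UPF2 has 4 GGGCGG matches, and SMG5 has CCAAT at −226 and GGGCGG at −94 and −72. Of 35116 promoter windows of this length 32.0% hold CCAAT, 42.6% GGGCGG and 6.34% CACGTG, so the matches are a description of the windows.

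The other genes of the pathway were described from lists. For the counts as fitted in each list, edgeR called 0.653% of all tested genes higher and 2.40% lower. At an unadjusted p under 0.05 the share was 21.4%. DESeq2 called 6.74% and limma-voom 2.32% in either direction. Of 17 tested further NMD and termination factors, edgeR called none as fitted (3 at an unadjusted p under 0.05), DESeq2 1 and limma-voom 0. With the GC offset edgeR called 2 of 17 higher and 1 lower, against 12.8% and 15.3% of all tested genes, which is no more than the background. They were DHX34, a helicase that acts on the SMG1 complex (1.43 ± 0.12, edgeR adjusted p = 1.95e-04), NCBP1, the large cap-binding subunit (0.77 ± 0.14, edgeR adjusted p = 0.0044), and CTIF, a cap-complex translation factor (−0.62 ± 0.14, edgeR adjusted p = 0.0136). DHX34 had 29.7 and 46.6 CPM in control_sh and 69.5 and 108.4 CPM in RBM25_sh. As fitted the differences were 1.22 ± 0.34 for DHX34, 0.89 ± 0.31 for NCBP1 and −0.84 ± 0.32 for CTIF (edgeR adjusted p = 0.0827, 0.145 and 0.172). The list's median was 0.08 under each fit. For the genes of the other lists called with the offset, values below are those with the offset unless said to be as fitted.

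Exon junction complex genes and their partners had a median of 0.39 as fitted and 0.28 with the offset, and 12 of 14 were above 0 under each fit, where 7647 of 16091 tested genes were above 0 as fitted and 7792 with the offset. As fitted edgeR called none (2 at an unadjusted p under 0.05), and DESeq2 and limma-voom called 0. With the offset 4 of 14 were called higher and none lower, against 12.8% and 15.3% of all tested genes. These were the export adaptor gene ALYREF (0.84 ± 0.14, edgeR adjusted p = 0.00339), the splicing factor genes CWC22 (0.51 ± 0.14) and SRRM1 (0.41 ± 0.14) and the core gene CASC3 (0.48 ± 0.12), with SRRM1 and CASC3 named after their values were seen. The core helicase gene EIF4A3 stood at 112.1 and 143.5 CPM in the control and at 177.4 and 184.1 CPM in RBM25_sh, and was not called (0.50 ± 0.27, edgeR adjusted p = 0.326; 0.43 ± 0.18 and 0.0969 with the offset).

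The decay machinery had calls near the background share. Of 22 decapping, deadenylation and 5′ decay genes edgeR called none as fitted (5 at an unadjusted p under 0.05), DESeq2 1 and limma-voom 0. With the offset 4 were called higher and 4 lower, against 12.8% and 15.3% of all tested genes, and the medians were 0.11 as fitted and 0.09 with the offset. The deadenylase gene PAN2 stood at 54.0 and 76.4 CPM in the control and at 28.1 and 25.3 CPM in RBM25_sh, a difference of −1.29 ± 0.30 just outside the threshold (edgeR adjusted p = 0.0501) and of −1.23 ± 0.17 with the offset (edgeR adjusted p = 0.00171). With libraries scaled by totals only, PAN2 passed (edgeR adjusted p = 0.0442). The decapping cofactor gene DCP1B was at −1.16 ± 0.22 and the decapping enzyme gene DCP2 at 0.52 ± 0.12 with the offset. Of 16 exosome and SKI complex genes edgeR called none as fitted (3 at an unadjusted p under 0.05), as did DESeq2 and limma-voom, at medians of 0.18 and, with the offset, 0.13. With the offset EXOSC2 (0.80 ± 0.13) and EXOSC3 (0.60 ± 0.17) were called higher and EXOSC8 (−0.82 ± 0.16) lower, 2 and 1 of 16 against the same shares. Of 9 genes of the kinase family of SMG1 and its assembly factors, SMG1 included, edgeR called none as fitted (0 at an unadjusted p under 0.05). With the offset TTI1 (0.62 ± 0.18) was called higher and ATM (−0.37 ± 0.12, edgeR adjusted p = 0.0492), named after its values were seen, lower. That is 1 of 9 in each direction, against 12.8% and 15.3% of all tested genes. The groups overlapped in CPM for ATM, and as fitted it was at −0.20 ± 0.31 (edgeR adjusted p = 0.758).

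Endogenous transcripts known as NMD targets held the largest differences printed here, in DDIT3 and UPP1. Of 26 tested, edgeR called none higher and 2 lower as fitted, against 0.653% and 2.40% of all tested genes. At an unadjusted p under 0.05 there were 8 in either direction, against 21.4% of all tested genes. DESeq2 called 1 higher and 4 lower, and limma-voom 0 higher and 2 lower. With the offset 2 were called higher and 6 lower, against 12.8% and 15.3% of all tested genes. The medians were −0.13 as fitted and −0.12 with the offset. The 2 called lower as fitted were DDIT3, at 48.6 and 83.7 CPM in the control and 7.71 and 9.69 CPM in RBM25_sh (−2.93 ± 0.36, edgeR adjusted p = 0.00707), and UPP1, a uridine phosphorylase gene, at 82.8 and 131.9 against 16.8 and 23.4 CPM (−2.42 ± 0.34, edgeR adjusted p = 0.0114). With the offset DDIT3 was at −2.90 ± 0.25 and UPP1 at −2.43 ± 0.25. The others called lower with the offset were ASNS (−1.35 ± 0.24), GADD45A (−1.25 ± 0.25), GADD45B (−0.82 ± 0.21) and CARS (−0.73 ± 0.12). GADD45B and CARS are named after their values were seen. As fitted ASNS was at −1.31 ± 0.32 and GADD45A at −1.34 ± 0.36, and neither was called (edgeR adjusted p = 0.0589 and 0.0794). Without RBM25_sh replicate 1 UPP1 was at −2.18 as fitted (edgeR adjusted p = 0.0504) and at −2.20 with the offset (edgeR adjusted p = 7.03e-05). DDIT3 and ASNS are also textbook targets of the stress factor ATF4, whose part in these differences was not tested. The ATF4 gene, named after its values were seen, was not called under either fit. It was at −0.36 ± 0.26 as fitted (edgeR adjusted p = 0.463) and at −0.19 ± 0.15 with the offset (edgeR adjusted p = 0.362). ATF4 had 528 and 644 CPM in control_sh and 432 and 479 CPM in RBM25_sh. That is lower without overlap, as for 27.9% of all tested genes, and these are RNA levels only. With the offset CDKN1A (1.21 ± 0.15) and SNHG12 (1.09 ± 0.22), named after their values were seen, were the 2 called higher, and GAS5, a well-known NMD target named on the same basis, was at −0.01 ± 0.25 (edgeR adjusted p = 0.981).

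**Figure D5:**
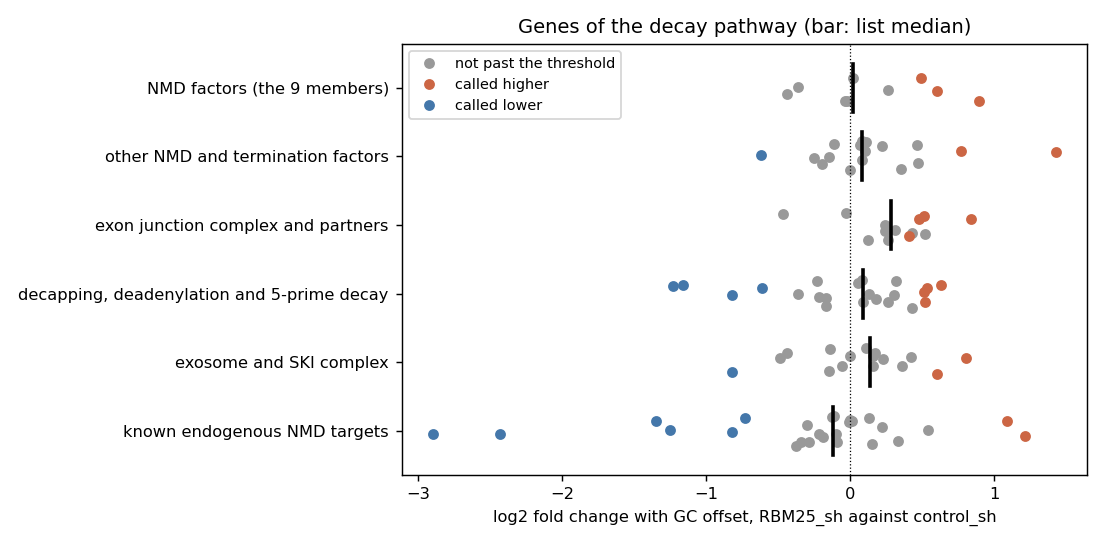
Log2 fold change of RBM25_sh against control_sh with the GC offset for the tested genes of 6 lists, with 1 point per gene (orange called higher, blue called lower, grey not past the threshold), points spread vertically at random and a bar at the list median. The exon junction complex list has its median at 0.28, and the NMD targets have theirs at −0.12 with DDIT3 and UPP1 at the far left.

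The profile over the 4 libraries was compared with that of 117 other pathway genes by the root mean square distance of centred log2 CPM, which with 4 libraries describes likeness only. UPF2 was nearest to TTI1 (distance 0.017), SMG5 to EDC4 (0.083) and SMG8 to NCBP1 (0.112). UPF1 was nearest to CNOT3 (0.088), UPF3A to SRSF7 (0.050), UPF3B to SNHG1 (0.106), SMG1 to CNOT6 (0.051), SMG6 to RNPS1 (0.065) and SMG9 to EXOSC1 (0.048).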

How the data were processed

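RNA was sequenced from 4 HCT116 libraries, grouped by their titles. TRIzol extraction and Illumina library construction are recorded per the labels' protocols. Cuffdiff 2.1.1, Cufflinks 2.1.1, TopHat2 2.0.9 and Bowtie2 2.0.6 appear, with no role, in the submitters' processing notes. For the counting tool, strand setting and build, the sources used here give none. The authors deposited whole-number counts per gene and FPKM per gene; the deposited FPKM equal count over listed length over 1 factor per library within 0.1%. Positions of all 58735 genes equal GENCODE release 29 on GRCh38; 27 date-like names were taken from it by ID.

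Counts were fitted with edgeR 4.0.16 in R 4.3.3 (filterByExpr, TMM, quasi-likelihood F test on group, 2 residual degrees of freedom, two-sided), with Benjamini-Hochberg adjustment over 16091 genes. The SE is the log2 fold change over the square root of F. The GC offset is a lowess trend (span 0.3) per library of centred log2 CPM against the longest transcript's GC content, which 99.95% of genes had; with it the common biological coefficient of variation was 0.144, and 0.252 without it. Corrected CPM divide counts plus 0.5 by that offset. Other alternatives used DESeq2 1.42.0, limma 3.58.1 and log2 FPKM. The fits were tested on simulated data with 100 genes changed 2-fold and 100 changed 4-fold. Where a GC trend between replicates was simulated, edgeR without the offset recovered none of the changed genes. With the offset it recovered 62 of the 2-fold and 99 of the 4-fold changes. No GC trend between the groups and no change below 2-fold was simulated. In the data edgeR without the offset called 491 genes, so the simulation does not show how well either fit works here. The members and lists were chosen with earlier results of these data known, the GC offset included. Named genes are RBM25, the members, up to 4 per other list with the smallest p, the 3 most counted copies, tested overlapping genes and each member's nearest pathway gene; others are marked. Protein sequences were not used here. Libraries of a group differed beyond counting noise (chi-square over degrees of freedom 62.5 for control_sh and 24.6 for RBM25_sh).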

Additional observations from a re-analysis of the deposited data

How the results depend on the processing

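The count of all genes called, 491 as reported, was 1438 with no filter, 1085 with the DESeq2 Wald test, 215 and 268 by limma-trend after adding 1 or 0.1 to FPKM, 4518 with the GC offset and 4734 with an offset for GC and length. Without 1 library it ranged from 204 to 2389, and with the GC offset, in fits added after seeing the data, from 1880 to 6273 (5604 without control_sh replicate 2 and 2188 without RBM25_sh replicate 2). A fit without 1 library takes its spread from the group that keeps 2, and assumes that the lone library varies alike. In either direction DESeq2 called 6.74% of all tested genes, the GC offset fit 28.1% and the GC and length offset fit 29.4%. The count of decay factors called higher, 0 as reported, was 1 with DESeq2, 3 with the GC offset and 3 with the GC and length offset. It ranged from 0 to 1 without 1 library and from 1 to 4 with the GC offset. The count called lower was 0 in the fits without 1 library and ranged from 0 to 2 with the GC offset. The RBM25 fold change ranged from −1.96 to −1.52 without 1 library, with a highest edgeR adjusted p of 0.202, and from −2.01 to −1.91 with the GC offset, with a highest of 4.9e-05.

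The replicate numbers are not said to mark a shared batch, and deviations of same-numbered libraries correlated at 0.47 across genes. With the replicate block 5722 genes were called, and 3 decay factors higher, the same UPF2, SMG5 and SMG8. With the GC offset and the replicate block together 6332 genes were called, with 3 decay factors higher and 1 lower, UPF3B. EIF4A3, not called otherwise with all 4 libraries, was called with the block (0.51, edgeR adjusted p = 0.0145) and with offset and block (0.46, edgeR adjusted p = 0.00449).

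Signs turned in 5 of the 9 factors. SMG1 had a log2 fold change of −0.05 with library totals only, −0.04 with the GC offset and −0.04 with the offset and block, and ranged from −0.14 to 0.29 without 1 library and from −0.10 to 0.01 with the offset. UPF1 was 0.02 with the GC offset, 0.02 with the offset and block and 0.04 with the GC and length offset, and ranged from −0.41 to 0.07 without 1 library and from −0.06 to 0.07 with the offset. SMG6 ranged from −0.01 to 0.31 without 1 library, SMG9 from −0.06 to 0.03 and UPF3A from −0.67 to 0.01 with the offset. UPF2, SMG5, SMG8 and UPF3B kept their sign in all 16 planned and 4 added alternatives. The cause of these changes was not tested.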
